A study of Arabidopsis thaliana with 12 samples.

Results

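The Aux/IAA and ARF genes, which encode the core transcriptional regulators of the auxin response, were followed through maps of H3K27me3 and of VAL1 and VAL2 binding in Arabidopsis thaliana seedlings. The members were the protein-coding genes of TAIR10 with the names IAA1 to IAA34 or ARF1 to ARF22. The annotation held 51 of them among 27444 nuclear protein-coding genes: 29 Aux/IAA genes, numbered IAA1 to IAA20 and IAA26 to IAA34, and 22 ARF genes. Genes for ADP-ribosylation factors, which share the symbols ARF1 and ARF3, were not members.

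H3K27me3, the histone mark set by Polycomb repressive complex PRC2, was mapped by ChIP-seq in Col-0 wild type and in the val1val2 double mutant, with 2 libraries each. A GFP antibody was used on VAL1-GFP in the val1 mutant (2 lists) and on VAL2-GFP in the val2 mutant (1 list). All plants were whole seedlings of the Col-0 ecotype, 14 days old. The promoters of the transgenes and the number of independent lines were not given in the sources used here, and no list of untagged plants was used. Because whole seedlings were used, fewer cells with the mark and less mark per cell cannot be told apart.

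Auxin acts by removing repressors. Aux/IAA proteins bind ARF proteins and bring the corepressor TOPLESS to auxin-responsive genes. When auxin is present, the receptor F-box proteins TIR1 and AFB1 to AFB5 capture the degron of an Aux/IAA protein, the repressor is broken down, and the ARF is free to act. Many Aux/IAA genes are themselves switched on by auxin, which closes a negative feedback loop. VAL1 and VAL2 are transcriptional repressors whose B3 domain recognises the RY element, and the study set the places they bind beside the H3K27me3 map of plants that lack both.

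The RY core was sought as TGCATG or, on the other strand, CATGCA, and matches may overlap. The sequences below are the stretches of 30 bases at VAL summits that held cores at the genes the results turn on. They were read from the RefSeq TAIR10.1 sequence and are written 5′ to 3′ on the strand of the gene, with the RY cores in capitals. The first 3 lie in the 5′ UTR, the next 2 upstream of the gene and the last inside a microRNA gene.
IAA7 at chr3:8194618-8194647 (plus strand): agcaaaagaCATGCACATGCAattacacga
IAA14 at chr4:8350175-8350204 (minus strand): atgtagggattcCATGCActacagcagata
IAA17 at chr1:1136230-1136259 (plus strand): atacgacatacaCATGCAgctacctcctag
IAA3 at chr1:1130399-1130428 (minus strand): atttcgaaagcCATGCATGagaaaaccaaa
IAA16 at chr3:1291877-1291906 (minus strand): tccatcgtaatCATGCATGggggcatgaac
MIR167D at chr1:11137742-11137771 (plus strand): acataatttaCATGCATGCActttgtgtat
IAA7 carried 2 cores side by side, IAA14 and IAA17 carried 1 each, IAA3 and IAA16 carried 2 that overlap, and MIR167D carried 3 that overlap.

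The families differed in the mark itself. A gene was called marked when H3K27me3 peaks covered at least 20% of its length, from start to end, in both libraries of a genotype. In wild type 14 of the 29 Aux/IAA genes were marked (48.3%) and none of the 22 ARF genes, against 25.6% of all genes. The marked genes were IAA1, IAA2, IAA5, IAA6, IAA7, IAA14, IAA15, IAA17, IAA19, IAA20, IAA28, IAA29, IAA30 and IAA33. The families also differed in length, with a median of 1740 bp for Aux/IAA and 3670 bp for ARF genes, and the part of length in the counts was not tested. In val1val2 the count was 16 of 29 for Aux/IAA and 1 of 22 for ARF, or 17 of 51 members (33.3%), against 30.4% of all genes.

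No member was called lost (cover of at least 20% in each wild-type library and less than 20% in each val1val2 library), against 2.03% of all genes and 7.92% of the genes marked in wild type. All 14 marked Aux/IAA genes stayed above the 20% line in both val1val2 libraries. Members called gained were IAA13, IAA16 and ARF11, or 5.88% of the 51, against 6.42% of all genes. Among the 37 members unmarked in both wild-type libraries the share gained was 8.11%, against 8.82% of such genes. These shares lie near those of the genome. Of the 51 members, 30 had no H3K27me3 cover in any of the 4 libraries.

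**Figure D1:**
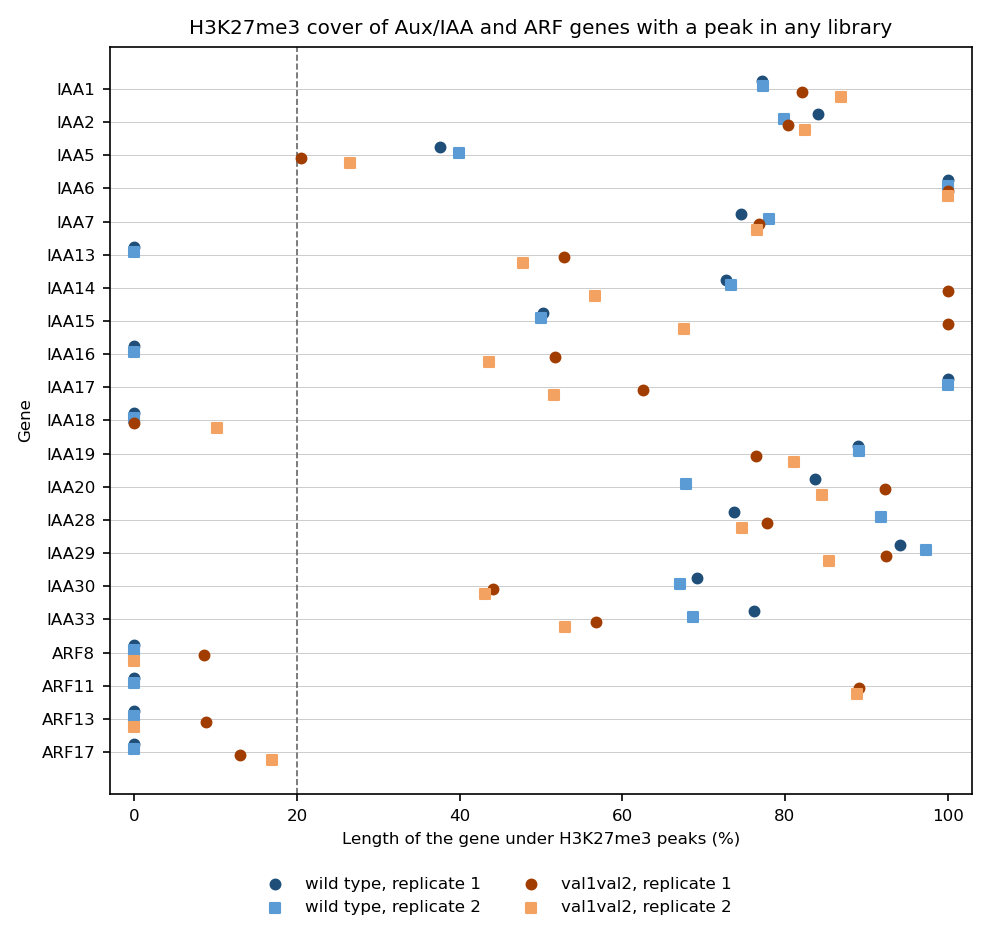
Percent of gene length under H3K27me3 peaks in each of the 4 libraries, for the 21 members with a peak over the gene in any library. Circles and squares are replicates 1 and 2, blue is wild type and brown or orange val1val2, and the dashed line is the 20% threshold. IAA17 and IAA30 sit lower in both val1val2 libraries, and IAA13, IAA16 and ARF11 move from 0 to above 40%.

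The smallest p that an exact permutation test (two-sided) can reach with 2 libraries per genotype is 0.333, so differences between genotypes are given as values without a p. A difference is singled out where the mean cover differed by at least 20 percentage points and the libraries of the genotypes did not overlap. By this rule cover was lower in val1val2 at 2 of 51 members (3.92%, against 3.95% of all genes) and higher at 4 (7.84%, against 9.82%). Among the marked members the lower share was 2 of 14 (14.3%), against 14.8% of all marked genes. The marked members had a median cover of 76.8% in wild type and 78.5% in val1val2, and the median of their differences was -3.56 points. All genes marked in wild type had medians of 86.3% and 87.0% and a median difference of 0.

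IAA17, also called AXR3, encodes a repressor whose stabilising mutations make auxin-resistant plants, and it had the largest drop in cover among the members. The gene (AT1G04250, chr1:1136078-1138663, plus strand) had cover of 100% in each wild-type library, 62.6% in the first val1val2 library and 51.6% in the second. The val1val2 libraries lay below both wild-type libraries, with a mean of 57.1% ± 7.74 (SD, n = 2). The peak was 3681 and 3542 bp long in wild type, running from just before the start to beyond the gene end, and 1618 and 1335 bp in val1val2, inside the gene. The peaks also had lower deposited values. The pileup, the read coverage that MACS2 gives for a peak, was 145.2 and 144.9 in wild type, against 34.5 and 38.3 in the mutant. Read totals are unknown, so pileup is given here and below as deposited and not as an amount of mark. The authors' fold enrichment over local background, at 2.44 and 2.31 in the wild-type libraries, was 1.66 and 1.76 in the mutant. The −log10 q of the peak was 22.9 and 21.3 in wild type but only 2.09 and 2.76 in val1val2. IAA17 therefore kept its call through a short, weak peak over the middle of the gene.

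IAA30 encodes an Aux/IAA protein without the degron, and it was the other member with lower cover. The gene (AT3G62100, chr3:22995686-22996809, plus strand) was covered over 69.2% and 67.1% in wild type, compared with over 44.1% and 43.2% in val1val2. The difference in means was -24.5 points, larger than the SD of 1.51 and 0.692 points within the genotypes, and the libraries did not overlap. The difference was larger before the gene than within it. In the 1 kb upstream the cover was 100% in each wild-type library but 16.3% and 8.1% in the mutant ones. A single peak of 4388 and 4434 bp in wild type stood against a peak of 496 and 485 bp within the gene and another upstream of the gene in val1val2. The peak within the gene had a −log10 q of 3.00 and 5.22, against 12.7 and 13.9 for the wild-type peak.

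IAA33 and IAA5 showed lower cover below the 20-point rule. IAA33, which also lacks the degron, was covered over 76.2% and 68.7% in wild type, compared with 56.7% and 52.9% in val1val2. IAA5, an auxin-inducible gene, was covered over 37.6% and 39.96% in wild type, compared with 20.5% and 26.5% in val1val2, and its peak ran on over the neighbours AT1G15590 and AT1G15600. At both genes the libraries of the genotypes did not overlap.

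IAA15 went the other way. It was covered over 50.2% and 49.96% in wild type, compared with over 100% and 67.6% in val1val2, a difference in means of 33.7 points. Both val1val2 libraries lay above both wild-type libraries, but they differed from each other by about as much as from wild type (SD 22.9 points). Without the first val1val2 library the difference was 17.5 points, so that IAA15 no longer met the 20-point rule and 3 members remained with higher cover. The fold enrichment of its peak was similar in all 4 libraries, at 4.20, 4.17, 4.08 and 4.33, and the peak was 1597 and 1601 bp long in wild type but 2505 and 1660 bp in the mutant.

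The 3 members called gained had peaks with a −log10 q below 10. IAA13, whose coding sequence is 81.5% identical to that of the embryo patterning gene IAA12 (BDL), had no cover in wild type but 52.8% and 47.8% in val1val2. Its peak was 3909 and 3717 bp long, reached from before the gene into its first part, and had a −log10 q of 7.04 and 7.86. IAA16 had no cover in wild type but 51.7% and 43.6% in val1val2, under peaks of 1415 and 1194 bp inside the gene with a −log10 q of 3.01 and 2.52. ARF11, of the clade of repressing ARFs, had no cover in wild type but 89.1% and 88.9% in val1val2.

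At ARF11 (AT2G46530, chr2:19104632-19108486, plus strand) the mark was already present nearby. Both wild-type libraries had a peak of 1634 and 1621 bp that ended before the gene, at positions -814 and -787 relative to its start. In val1val2 a peak of 7223 and 7327 bp covered that place and ran on to positions 3434 and 3424 of the gene's 3855 bp. Its −log10 q was 3.97 and 4.73, which lay between the values of 3.24 and 5.05 of the short wild-type peak. VAL1 had no summit in both lists at ARF11 or IAA13, but did at IAA16. The VAL2 list had a summit at IAA16, at IAA13 (−log10 q 3.18) and at ARF11 (2.27), against 53.4% of all genes with a VAL2 summit.

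**Figure D2:**
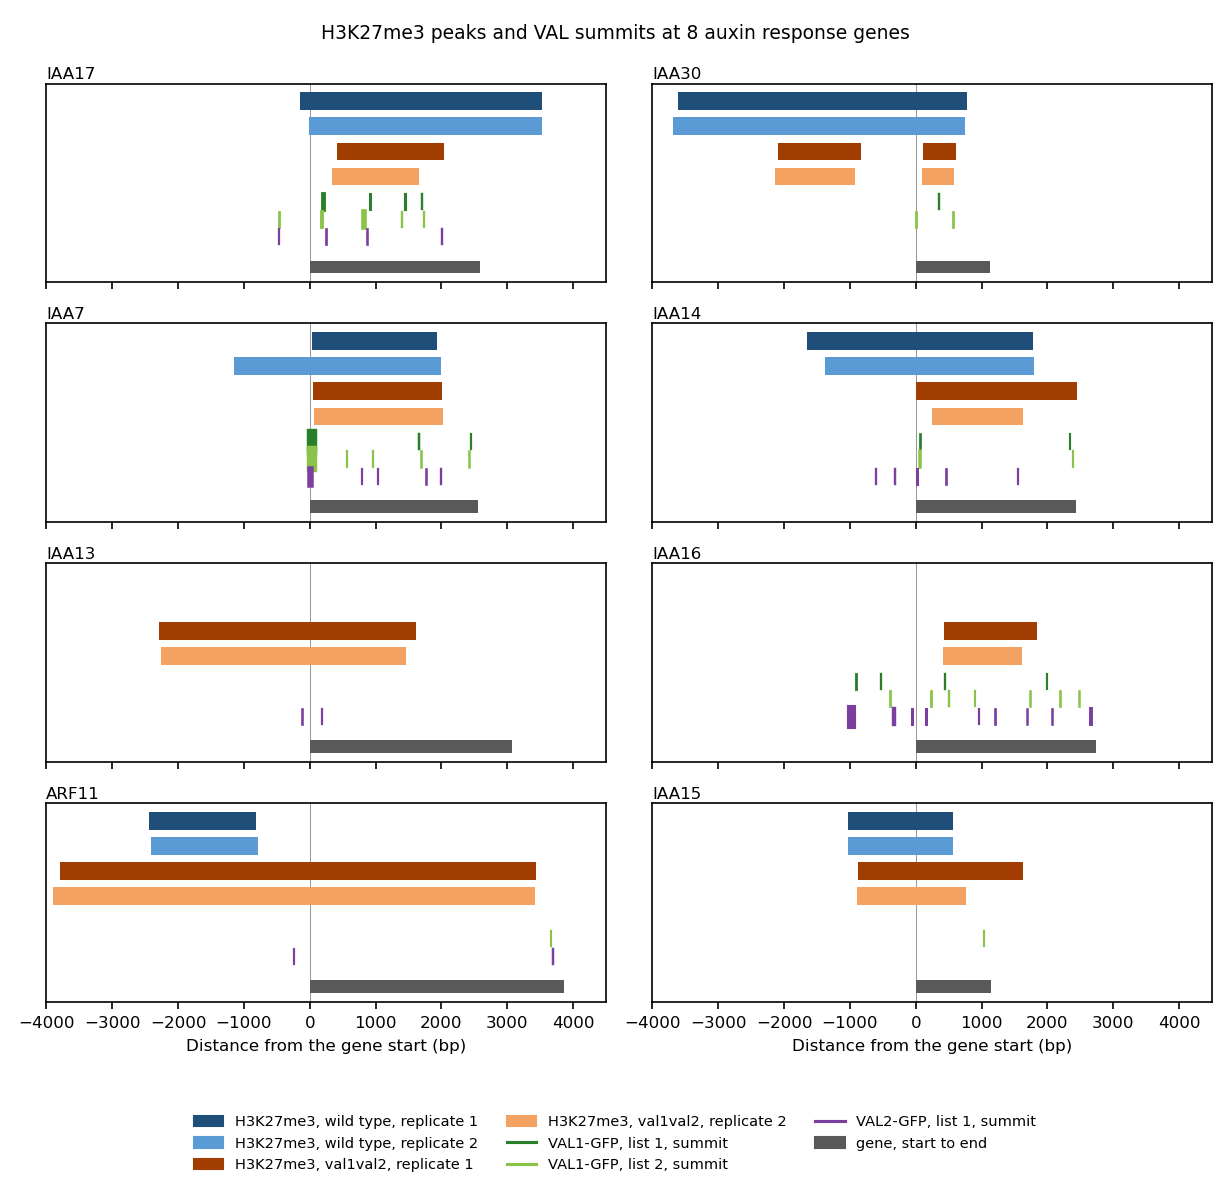
H3K27me3 peaks in 4 libraries (bars), VAL1-GFP and VAL2-GFP summits in 3 lists (ticks, thicker for a higher −log10 q) and the gene (grey bar) at 8 members, by distance from the gene start in bp along the gene. Peaks are drawn where they overlap the interval from 1 kb upstream to the gene end. At IAA17 and IAA30 the val1val2 bars are shorter, at IAA7 they are as long over the gene as in wild type, and at IAA13, IAA16 and ARF11 only the val1val2 bars lie over the gene.

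When only peaks with a −log10 q of at least 10 were kept, the picture at the members changed in the lost and gained calls. Then 12 of 51 members were marked in wild type, against 3211 of 27444 genes (11.7%). IAA5, IAA17 and IAA30 were lost, 3 of 51 members, against 821 of 27444 genes (2.99%). No member was gained, against 903 of 27444 genes (3.29%). For IAA5 the call turned on a small step, since its val1val2 peaks had a −log10 q of 9.97 and 9.67.

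Of the 14 marked Aux/IAA genes, 9 had cover that did not overlap between the genotypes (64.3%, against 58.5% of all marked genes), and at 5 the libraries overlapped or were equal. IAA6 was covered over 100% in all 4 libraries, the highest value the measure can take, while its peak differed. The peak was 4720 and 4253 bp long in wild type but 3353 and 2540 bp in the mutant, with a pileup of 81.0 and 82.4 against 125.8 and 123.9. The 1 kb upstream of IAA6 had full cover in 3 libraries and 34.2% in the second val1val2 library. IAA2 was covered over 84.1% and 79.9% in wild type, compared with 80.4% and 82.4% in val1val2, so the genotypes overlapped. IAA19 (MSG2), which acts in the bending growth of the hypocotyl, was covered over 89.0% and 89.1% in wild type, compared with 76.5% and 81.1% in val1val2, a difference in means of -10.3 points without overlap. IAA29 was covered over 94.2% and 97.4% in wild type, compared with 92.4% and 85.4% in val1val2, a difference of -6.87 points without overlap. IAA20, the degron-less relative of IAA30 at 84.9% coding identity, was covered over 83.7% and 67.8% in wild type, compared with 92.3% and 84.5% in val1val2, higher without overlap by 12.7 points. IAA28, of root development, was covered over 73.8% and 91.8% and then over 77.9% and 74.7%, with overlap, under weak peaks whose −log10 q ran from 1.78 to 3.41.

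IAA7 (AXR2, AT3G23050, chr3:8194606-8197161, plus strand) is the case with the strongest VAL1 binding among the members. Its cover was 74.6% and 78.1% in wild type, compared with 76.8% and 76.5% in val1val2, and the val1val2 values lay between those of wild type. The fold enrichment of its H3K27me3 peak was 2.54 and 2.44 in wild type, compared with 2.63 and 2.72 in val1val2. The other peak values were lower in the mutant without overlap: the pileup was 146.8 and 153.7 in the wild-type libraries and 99.0 and 103.4 in the mutant ones, and the −log10 q was 24.8 and 24.5 against 18.0 and 19.4. Relative to the gene start the peak began at position 30 in 1 wild-type library and -1149 in the other, and at 47 and 68 in the mutant libraries.

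At marked members the mark lay towards the 5′ end more often than the 3′ end. The gene start was inside a peak in both wild-type libraries at 10 of 14 marked members (71.4%, against 58.7% of all marked genes), and the gene end at 3 (21.4%, against 45.1%). In val1val2 the counts were 8 for the start (57.1%, against 53.5%) and 2 for the end (14.3%, against 42.2%), so both shares were also lower over all marked genes. Of the marked members, only IAA17 was covered at start and end in wild type and at neither in val1val2.

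Several Aux/IAA genes stand next to each other, head to head, with no annotated gene between. IAA3 and IAA17 were 6388 bp apart on chromosome 1, IAA14 and IAA1 10732 bp on chromosome 4, and IAA2 and IAA7 12510 bp on chromosome 3. The pair of IAA3 and IAA17 was split: IAA3 (SHY2), which acts in root and shoot growth and has 69.3% coding identity with IAA17, had no cover in any library. The other pairs were marked on both sides. IAA1 was covered over 77.2% and 77.3% in wild type, compared with 82.1% and 86.9% in val1val2, higher without overlap by 7.27 points. IAA14 (SLR), the repressor of lateral root initiation, was covered over 72.7% and 73.4% in wild type, compared with over 100% and 56.6% in val1val2, so its mutant libraries lay on both sides of wild type. The peak at IAA14 reached upstream of the gene in wild type, where the 1 kb before the start had cover of 100% in each library, but hardly in val1val2 (0.2% and 0%).

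Shifts outside the gene were also found at unmarked members. IAA12 (BDL) had cover of 34.5% and 35.0% in the 1 kb upstream in wild type and none in val1val2, from a peak that lay over the neighbour AT1G04540. IAA10 had none upstream in wild type but 73.5% and 81.6% in val1val2, from a peak over the neighbour AT1G04090.

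The degron is the short stretch that the receptors bind. Its core of glycine, tryptophan, a pair of prolines and valine was present in the protein of 17 of the 29 Aux/IAA genes, of which 11 were marked in wild type, against 3 of the 12 without it. With the core shortened by the valine, a form chosen after the values were seen, 23 genes had it and 11 of them were marked. The 6 without it were IAA20, IAA30, IAA31, IAA32, IAA33 and IAA34. IAA20, IAA30 and IAA33 were marked, and the other 3 had no cover in any library. None of these counts was tested.

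Among the ARF genes the mark was nearly absent in every group. The activating ARFs are ARF5 (MP), ARF6, ARF7 (NPH4), ARF8 and ARF19, which switch on auxin-responsive genes. ARF5, ARF6, ARF7 and ARF19 had no cover in any library, and ARF8 had 8.58% in 1 val1val2 library alone. The targets of miR160, the repressing ARF10, ARF16 and ARF17, had none in wild type. ARF17 had 12.96% and 16.98% in val1val2, below the 20% line. The targets of the small RNA tasiR-ARF, which are ARF2, ARF3 (ETT) and ARF4, had no cover in any library. ARF1, ARF9 and ARF18 also had none.

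ARF12, ARF13, ARF14, ARF15, ARF20, ARF21 and ARF22 lie on chromosome 1 and are close copies. Apart from ARF13, their coding sequences were 93.3% to 97.1% identical, so reads may have been split among them or dropped, and their values are uncertain. None was marked, and none had a VAL1 or VAL2 summit. ARF13 (74.7% to 75.9% identity with the others) had 8.76% of cover in 1 val1val2 library. Its 1 kb upstream was covered over 32.9% and 32.5% in wild type, compared with 97.6% and 80.7% in val1val2, in the mutant by a peak over the neighbour NAC016. The wild-type peaks there were very weak, with a −log10 q of 0.48 and 0.24, against 7.02 and 7.79 for the mutant peak.

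With all ARF genes counted, VAL binding was called at a larger share of Aux/IAA than of ARF genes, a difference that was not tested. The ARF counts include the 7 genes of the chromosome 1 group, most of them close copies with uncertain values. Without them the ARF share would be higher for VAL1 and VAL2, and for VAL2 above that of Aux/IAA. Bound genes had a summit anywhere from 1 kb before the start to the gene end, for VAL1 in each of its lists and for VAL2 in the list used. VAL1 was called at 24 of 51 members (47.1%), against 38.2% of all genes. The count was 17 of 29 for Aux/IAA (58.6%) and 7 of 22 for ARF (31.8%). VAL2 was called at 35 of 51 members (68.6%), against 53.4% of all genes, with 22 Aux/IAA and 13 ARF genes. Both were called at 21 members, and 12 had no summit in any list. Of these, 8 were ARF genes, 7 of them from the chromosome 1 group. The VAL2 calls have no replicate.

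VAL1 summits and the mark occurred together in 11 of the 14 marked members (78.6%), against 46.8% of all marked genes. The marked members without a VAL1 call were IAA1, IAA15 and IAA29. Among the 37 members that were not marked, 13 were bound by VAL1 (35.1%), against 35.2% of all genes that were not marked. A call asks for a summit in each VAL1 list at any distance from each other. When the summits had to lie within 200 bp, VAL1 was called at 19 members, and the marked IAA6, IAA20 and IAA30 dropped out. Many of the VAL1 summits were weak. With a −log10 q of at least 2 in both lists, IAA5, IAA7, IAA14, IAA17 and IAA19 were the marked members still called. The share over all marked genes was not computed at these 2 settings. With a −log10 q of at least 10 in both lists, VAL1 was called at 3 of 51 members, against 910 of 27444 genes (3.32%). They were IAA5, IAA7 and IAA17, and all were marked in wild type. With the same limit VAL2 was called at 5 of 51 members, against 1867 of 27444 genes (6.8%). These were IAA2, IAA7, IAA16, ARF2 and ARF6.

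**Figure D3:**
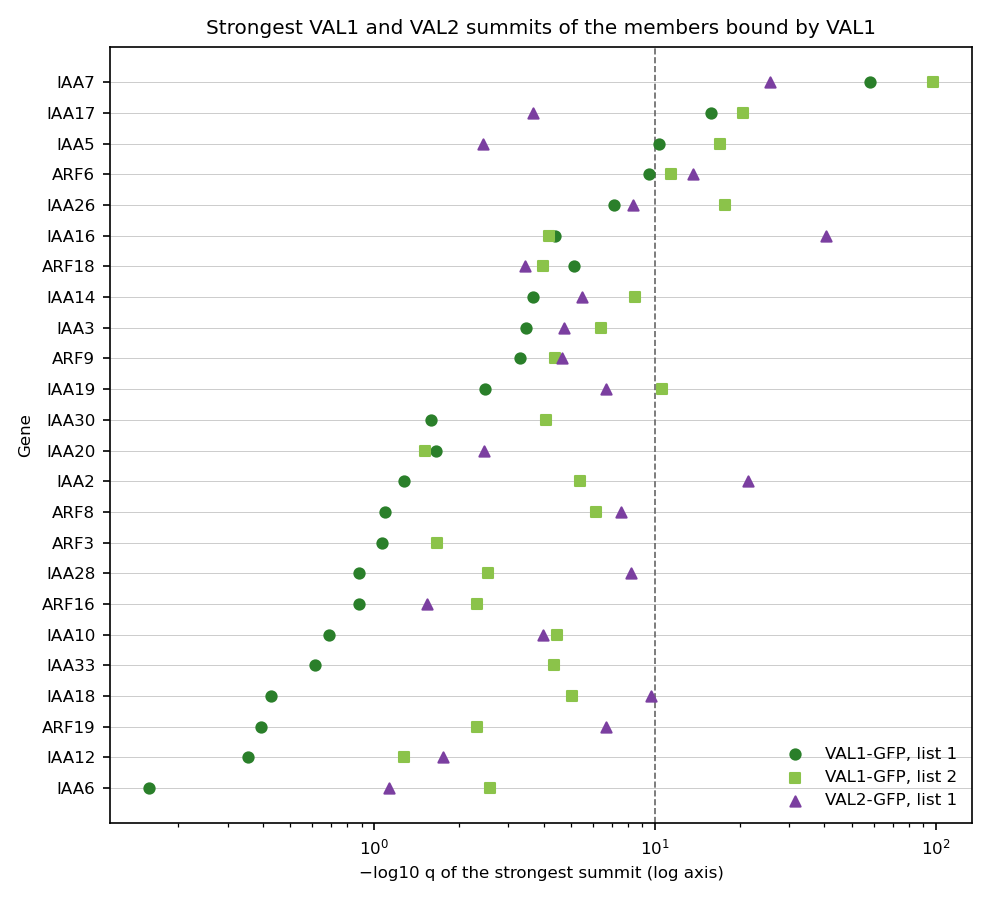
The −log10 q of the strongest summit, on a log axis, in the 2 VAL1-GFP lists (circles and squares) and the VAL2-GFP list (triangles), for the 24 members bound by VAL1, ordered by the lower VAL1 value. The dashed line is at 10. IAA7 stands to the right of all others in VAL1, and IAA16 has the highest VAL2 value; a missing triangle means no VAL2 summit.

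IAA7 had the strongest VAL1 summit of the members in both lists. It lay 35 and 37 bp past the gene start, in the 5′ UTR, with a fold enrichment of 6.65 and 13.2 and a −log10 q of 57.9 and 97.3. The summit ranked 146 of 21580 in the first VAL1 list and 133 of 34554 in the second. The VAL2 summit lay 12 bp past the start with a fold enrichment of 4.63. All 3 summits fell within 100 bp of the RY cores of IAA7 printed above.

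IAA17 came next, with several summits. The strongest in the first VAL1 list lay 201 bp past the start, in the 5′ UTR (−log10 q 15.8). In the second list a summit 180 bp past the start had a fold enrichment of 3.90, and a stronger one lay 823 bp past it in intron 1 (5.32, −log10 q 20.5). The printed core of IAA17 lay 32 and 11 bp from the 5′ UTR summits of the VAL1 lists. Both 5′ UTR summits fell before the val1val2 H3K27me3 peaks, which ran from 415 to 2032 bp and from 332 to 1666 bp past the start. The summit in intron 1 and the weaker VAL1 summits at 917, 1450 and 1402 bp fell inside those peaks, and all of these summits lay inside the wild-type peaks. Further VAL1 summits at 1708 and 1738 bp lay inside the first val1val2 peak but past the end of the second. Another, at position -467, lay outside the peaks of both genotypes.

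The other members among the 5 with the strongest VAL1 summits were IAA5, ARF6 and IAA26, and all of these summits were upstream. At IAA5 they lay at positions -490 and -506 relative to the start (fold enrichment 3.14 and 5.05), and the first was 310 bp from the start of the divergent neighbour AT1G15590. At ARF6, an activator of flower maturation, they lay at -691 and -689 (2.84 and 3.89), and a VAL2 summit lay at -951 (3.58). At IAA26 they lay at -235 and -327 (2.70 and 5.07), and the second was closer to the start of the long non-coding RNA gene AT3G03335, at 224 bp. ARF6 and IAA26 were bound in all 3 lists and had no H3K27me3 cover in any library, in contrast with IAA5 and IAA17.

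The strongest VAL2 summit of any member was at IAA16, 982 bp before the start, with a fold enrichment of 5.94 and a −log10 q of 40.6. It ranked 244 of 30493 summits in the list. It lay between IAA16 and RALFL21 and was closer to the start of RALFL21, by 880 bp against 982 bp. The strongest VAL1 summit of the first list was 899 bp before the start of IAA16 (fold enrichment 2.35), and that of the second list 240 bp past it (2.78), so VAL1 was weaker there and differed in place between lists. IAA2 had a VAL2 summit 49 bp past its start (fold enrichment 4.19).

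The RY core was present within 100 bp of the strongest VAL1 summit at 8 of the 24 bound members in the first list (33.3%) and at 10 in the second (41.7%). Windows of the same size 1 kb to either side held it at 2 and 4 members for the first list, and at 3 and 0 for the second. Over all genes bound by VAL1 the shares were 35.2% and 35.7% at the summit and between 6.96% and 7.48% in the flanks. A core was present in both lists at IAA7, IAA14, IAA17, ARF6 and ARF9. At IAA17 the strongest summits of the lists were 622 bp apart, and their cores were different ones. At IAA7, IAA14 and ARF6 the strongest summits of the lists were 2 bp apart. Neither list had a core at the strongest summit of IAA2, IAA5, IAA10, IAA12, IAA18, IAA19, IAA20, IAA28, ARF3, ARF8 or ARF19. The other bound members had it in 1 list.

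The 1 kb upstream of each gene was also searched on both strands for the auxin response element, to which ARF proteins bind. The form TGTCTC was found at 17 of 29 Aux/IAA genes (58.6%) and at 6 of 22 ARF genes (27.3%), against 39.6% of all genes. The form TGTCGG was found at 27.6% of Aux/IAA and 22.7% of ARF genes, against 14.6%. The RY core was found at 44.8% of Aux/IAA and 54.5% of ARF genes, against 32.2%. IAA3, IAA8, IAA19 and IAA31 had 3 matches to TGTCTC each, and IAA7, IAA14 and IAA17 had none. These matches are letters in a fixed window and not measured binding.

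The pathway around the members was followed with 28 further genes. The 6 receptor genes and the 5 corepressor genes (TPL and its relatives TPR1 to TPR4) were unmarked in both genotypes. Of these 11 genes 3 were bound by VAL1, all of them receptors, and 9 by VAL2. AFB2 had the strongest VAL2 summit among them, at position -3, with a fold enrichment of 5.75. The LBD genes LBD16, LBD18 and LBD29, targets of ARF7 and ARF19 in lateral root formation, were marked over 90.6% to 100% in all 4 libraries.

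GH3 genes encode enzymes that join auxin to amino acids, and 4 of 6 were marked in wild type, GH3.1, GH3.2, GH3.3 and GH3.17, of which GH3.17 was above 20% in only 1 val1val2 library. GH3.5 had no cover in wild type but 39.9% and 52.1% in val1val2, and GH3.6 none in wild type, compared with 74.6% and 73.7% in val1val2. Both were called gained, 2 of the 6 GH3 genes, against 6.42% of all protein-coding genes. The val1val2 peaks at GH3.5 were weak, with a −log10 q of 1.49 and 1.70, against 5.76 and 6.63 at GH3.6. GH3.3 was covered over 97.8% to 100% in all libraries, while its 1 kb upstream was covered over 100% in wild type and not at all in val1val2.

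Several ARF transcripts are cut by microRNAs, and some genes of those microRNAs differed between the genotypes. The mature sequences of miR160 and miR167 at the genes MIR160B and MIR167D, and the best match in each target, are given below in DNA letters from the RefSeq TAIR10.1 sequence. In the microRNAs the capitals mark the seed, bases 2 to 8, and in the targets the bases opposite it.
MIR160B at chr4:9888986-9889006 (plus strand): tGCCTGGCtccctgtatgcca
ARF10 at chr2:12115741-12115761 (plus strand): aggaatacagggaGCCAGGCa
ARF16 at chr4:14704141-14704161 (minus strand): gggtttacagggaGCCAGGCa
ARF17 at chr1:29274189-29274209 (plus strand): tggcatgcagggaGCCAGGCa
MIR167D at chr1:11137556-11137577 (plus strand): tGAAGCTGccagcatgatctgg
ARF6 at chr1:10686478-10686498 (minus strand): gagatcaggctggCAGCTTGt
ARF8 at chr5:14633841-14633861 (plus strand): tagatcaggctggCAGCTTGt
Over 21 bases miR160 had 2 mismatches to ARF10, 2 to ARF16 and 0 to ARF17, with 1 G:U pair at ARF16 and 1 at ARF17. The miR167 of MIR167D had 4 mismatches to ARF6, and 3 with 1 G:U pair to ARF8.

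MIR160B and MIR167D were called lost, 2 of the 8 small RNA genes followed, against 2.03% of protein-coding genes. No share over all microRNA genes or over genes of like length was computed. At MIR160B and MIR167D cover was 100% in each wild-type library and 0 in each val1val2 library. The peak at MIR160B was 1330 and 2061 bp long with a −log10 q of 2.24 and 3.85, and no VAL summit lay in its interval. The peak at MIR167D was 3125 and 3107 bp long with a −log10 q of 2.55 and 3.04. Both were thus weak peaks over short genes, of 89 and 377 bp, at which a peak covers all or nothing.

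MIR167D was bound by VAL1, at 237 and 193 bp past its start, with a fold enrichment of 2.39 and 4.06. The overlapping RY cores printed above lay between those summits. MIR160A, MIR167A, MIR167C and TAS3, the source of tasiR-ARF, were marked in all libraries, and MIR167B in none. MIR160C had no cover in 1 wild-type library and 100% in the other 3, so it was called neither way. Of the ARF targets named above, ARF6, ARF10 and ARF16 had no cover in any library.

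**Figure D4:**
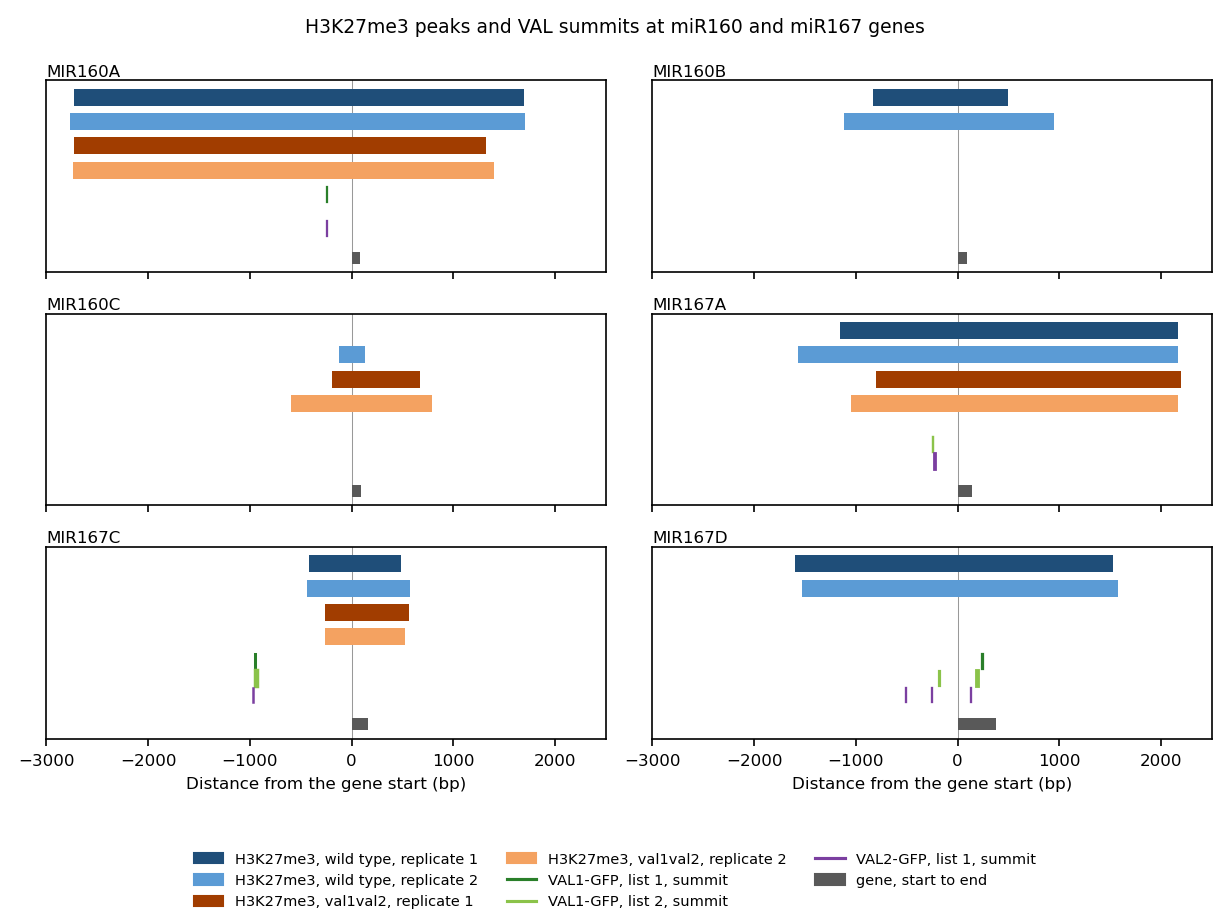
H3K27me3 peaks (bars, 4 libraries) and VAL summits (ticks, 3 lists) at 6 genes of miR160 and miR167, by distance in bp from the gene start; the grey bar is the gene. At MIR160B and MIR167D only the wild-type libraries have bars, and at MIR160A, MIR167A and MIR167C all 4 do.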

How the data were processed

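The authors called peaks with MACS2 against TAIR10, per the submitters' processing notes, which also name TopHat2 2.1.1, Cufflinks 2.2.1 and Cuffdiff. No source used here gives the MACS2 version, the ChIP aligner or the controls behind the lists. In the deposited files, pileup is a signal of coverage and fold enrichment a ratio to local background. The significance values of the deposited files were taken as −log10 p and −log10 q from the MACS2 column order, because a spreadsheet error had replaced their headers. H3K27me3 lists hold broad peaks (8324 and 8325 in wild type, 9925 and 10024 in val1val2), and GFP lists 1 line per summit (21580 and 34554 for VAL1, 30493 for VAL2). Read totals are unknown, so no interval is given. Inputs and the second VAL2-GFP sample were not analysed here.

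Overlapping peaks were merged, and the covered percent of each gene was computed with Python 3.11.15, numpy 2.4.6 and pandas 2.3.3, a step checked on artificial genes of known cover. Gene models, proteins and sequence came from TAIR10.1, in which each chromosome was at least as long as the last peak end. Biopython 1.88 gave coding identities and matplotlib 3.10.9 the figures. Described singly were members lost, gained or past the 20-point rule, the 5 with the highest VAL1 −log10 q and the head-to-head pairs. Other genes that are named were chosen after their values were seen, or belong to the role groups. The members and lists were chosen with earlier results of these data known. Whether replicates were separate plants is not in the labels, and their spread may be technical. Replicate numbers were not treated as pairs. Library deviations of the same number were uncorrelated (r = 0.00167 over 9046 genes). A single correlation of cover with 2 libraries per genotype cannot exclude a batch shared by libraries of the same number.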

Additional observations from a re-analysis of the deposited data

How the results depend on the processing

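The 14 members marked in wild type were 12 to 14 in number under every alternative run: other limits on −log10 q or cover, equal numbers of peaks, the upstream region added, and each library left out. The other H3K27me3 counts changed when weak peaks were left out, and so did the shares over all genes. With a −log10 q of at least 10, 9 members were marked in val1val2 in place of 17. Then 3 were lost in place of 0 and 0 were gained in place of 3. Over all genes the share marked in val1val2 was then 12% in place of 30.4%. The share lost was 2.99% in place of 2.03%, and the share gained 3.29% in place of 6.42%. With a −log10 q of at least 2, 1 member was lost (IAA28), against 2.44% of all genes. With cover of at least 50%, 1 was lost (IAA30) and 1 gained (ARF11), and no share over all genes was computed. Leaving out any H3K27me3 library gave the same counts (0 lost, 3 gained). VAL1 calls went from 24 to 11 with a −log10 q of at least 2, to 3 with at least 10 and to 15 without the upstream 1 kb. They were 19 when the summits of the lists had to lie within 200 bp, and ranged from 24 to 35 with 1 list left out. VAL2 calls went from 35 to 5 with a −log10 q of at least 10. At that limit the share of all genes went from 38.2% to 3.32% for VAL1 and from 53.4% to 6.8% for VAL2. Each of these settings keeps fewer peaks, a narrower interval or closer summits than the main one, and leaving out a VAL1 list asks for a summit in only 1. Without val1val2 replicate 1 the difference of IAA15 was 17.5 points in place of 33.7, which ends its call under the 20-point rule, and without replicate 2 it was 49.9. With the replicate block, the pairs numbered 1 and 2 each gave 14 and 17 marked, 0 lost and 3 gained. Depth was unknown, so a missing peak does not show that the mark is absent.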
